A study of Chlamydomonas reinhardtii with 18 samples.

Results

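The 31 genes described here encode proteins of the plastid ribosome of the unicellular green alga Chlamydomonas reinhardtii. They were taken from a table of 17741 genes as every row whose deposited gene name begins with PRPL or PRPS, the symbols for plastid ribosomal proteins of the large and the small subunit. There were 21 PRPL genes and 10 PRPS genes, and the deposited annotation of all 31 names a plastid or chloroplast ribosomal protein. The rule itself used names alone and no measured value, although it was set with earlier results of these data known.

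All cultures were of strain CC-4532, a laboratory strain, grown in TAP medium (Tris, acetate and phosphate) under continuous light to the middle of logarithmic growth. The cells were pelleted by centrifugation, washed in TAP without Fe-EDTA, the iron source of this medium, and resuspended in fresh TAP without it. Polyadenylated RNA was sequenced from 2 cultures at each of 9 sampling points: before the wash, directly after it, then at 5, 10 and 15 min, at 30 and 60 min, and last at 120 and 240 min. The pre-wash group carries the label of iron-free medium as well, although it was taken before the wash, and the sources used here do not state the iron content of its medium. All post-wash groups share the pelleting, the wash and the transfer. None of the groups analysed here was washed and returned to medium with iron, so the absence of iron, the handling and the time in fresh medium cannot be told apart.

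Plastids translate with a ribosome of the bacterial type, inherited from their cyanobacterial ancestor. Part of its proteins and all of its ribosomal RNA are encoded by the plastid genome. The remaining proteins, among them those described here, are encoded in the nucleus, made in the cytosol and imported. This ribosome makes the plastid-encoded core subunits of the photosystems, the cytochrome b6f complex, the ATP synthase and the large subunit of Rubisco, several of which carry iron or work beside iron cofactors. The members are polyadenylated nuclear transcripts and were therefore measured, and plastid-encoded ribosomal proteins are not analysed here.

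Levels are given in FPKM, the sequenced fragments of a gene set against its transcript length and the mapped total, and may be compared between genes since they are per length. The deposited table holds 1 combined FPKM value for both cultures of a sampling point. No value therefore has a replicate error, no test was possible, and every difference below is described by its size alone. Differences are on the log2(FPKM + 1) scale, where 1 stands for 2-fold, and comparisons with the whole table use the 12580 genes that reached 1 FPKM in 2 or more columns. All 31 members passed that filter. Most kept genes were far weaker: before the wash their median was 5.09 FPKM, and that of the members was 435 FPKM. The shares and medians of all kept genes are therefore not matched to the members for level. Column sums were at most 762490 FPKM, at 10 min, and at least 631357 FPKM, before the wash, so differences from pre-wash are also given after scaling every column to the same sum, here called share-scaled, and some change sign. FPKM and shares are relative to the other transcripts of a sample and do not give transcripts per cell.

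The plastid ribosomal protein genes were strongly and rather evenly expressed. Averaged over the 9 sampling points, 28 of the 31 lay between 300 and 700 FPKM, 2 above and 1 below, with a median of 472 FPKM. PRPL7 stood apart. It encodes L7/L12, the protein of the flexible stalk that draws translation factors to the ribosome and that is present in several copies per ribosome in Escherichia coli, whereas most ribosomal proteins are present once. PRPL7 was at 2065 FPKM before the wash, 2191 FPKM directly after it, 2293 FPKM at 5 min, 2363 FPKM at 10 min, 2316 FPKM at 15 min, 2440.2 FPKM at 30 min, 2295 FPKM at 60 min, 2465 FPKM at 120 min and 1885 FPKM at 240 min. Its average of 2257 FPKM was 4.78 times the median of the members' averages and 2.60 times that of PRPL19, the next highest, and it held 13.3% of the members' summed average. At every sampling point PRPL7 was the highest member.

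Next in the large subunit came PRPL19 and PRPL21. L19 lies at the interface between the subunits and L21 binds the large ribosomal RNA in Escherichia coli. PRPL19 was at 757 FPKM before the wash, 835 FPKM directly after it, 848 FPKM at 5 min, 919 FPKM at 10 min, 875 FPKM at 15 min, 1027 FPKM at 30 min, 932 FPKM at 60 min, 948 FPKM at 120 min and 679.9 FPKM at 240 min. PRPL21 was at 632 FPKM before the wash, 639 FPKM directly after it, 670.0 FPKM at 5 min, 739.6 FPKM at 10 min, 711 FPKM at 15 min, 760.1 FPKM at 30 min, 738 FPKM at 60 min, 741 FPKM at 120 min and 505 FPKM at 240 min. Both were lowest at 240 min and highest at 30 min. The lowest member was PRPL4, annotated as the ery1 locus of erythromycin resistance, whose bacterial counterpart lines the exit tunnel for the growing chain. PRPL4 was at 212 FPKM before the wash, 216 FPKM directly after it, 211 FPKM at 5 min, 244 FPKM at 10 min, 238 FPKM at 15 min, 269.9 FPKM at 30 min, 261 FPKM at 60 min, 259 FPKM at 120 min and 185 FPKM at 240 min. The second highest member, PRPL19, averaged 3.73 times PRPL4, so apart from PRPL7 the whole set fitted within that ratio.

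In the small subunit the levels were closer together. The medians of the members' averages were 480 FPKM for the 10 PRPS genes and 472 FPKM for the 21 PRPL genes. PRPS16, PRPS17 and PRPS6 were the highest; S16 and S17 bind the small ribosomal RNA during assembly in Escherichia coli, and S6 sits on the platform of the subunit. PRPS16 was at 615 FPKM before the wash, 638 FPKM directly after it, 669 FPKM at 5 min, 698 FPKM at 10 min, 667 FPKM at 15 min, 743 FPKM at 30 min, 673 FPKM at 60 min, 713 FPKM at 120 min and 564 FPKM at 240 min. PRPS17 was at 527 FPKM before the wash, 549 FPKM directly after it, 575 FPKM at 5 min, 614 FPKM at 10 min, 590.2 FPKM at 15 min, 651 FPKM at 30 min, 618 FPKM at 60 min, 665 FPKM at 120 min and 464 FPKM at 240 min. PRPS6 was at 495 FPKM before the wash, 539 FPKM directly after it, 576 FPKM at 5 min, 603 FPKM at 10 min, 595 FPKM at 15 min, 607 FPKM at 30 min, 586 FPKM at 60 min, 612 FPKM at 120 min and 399 FPKM at 240 min. All 3 were lowest at 240 min, PRPS16 was highest at 30 min, and PRPS17 and PRPS6 were highest at 120 min. PRPS5, whose bacterial counterpart takes part in decoding accuracy, was the lowest of the small subunit at 347 FPKM before the wash, 339 FPKM directly after it, 349.5 FPKM at 5 min, 378 FPKM at 10 min, 378 FPKM at 15 min, 414 FPKM at 30 min, 408 FPKM at 60 min, 393 FPKM at 120 min and 259 FPKM at 240 min.

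**Figure D1:**
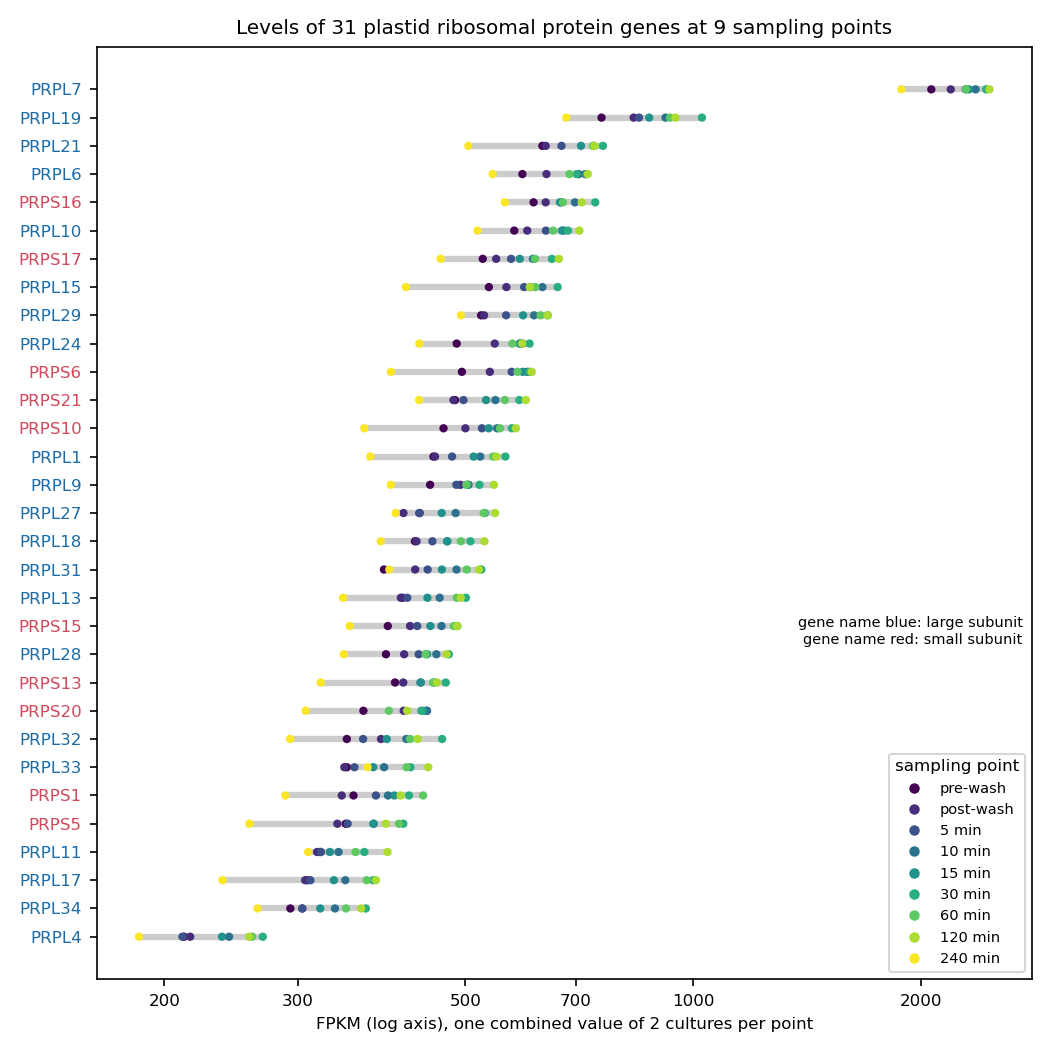
FPKM (log axis) of each of the 31 plastid ribosomal protein genes, 1 point per sampling point, ordered by average level; colours run with time and the grey bar spans lowest to highest. PRPL7 averages 2257 FPKM and stands clear of all others, 28 genes average between 300 and 700 FPKM, and the 240 min point is the lowest in 29 of 31 genes.

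Over the time course the members varied together and within narrow limits. The ratio of the highest to the lowest of a member's 9 values was 1.27 to 1.60, with a median of 1.40. No member reached 2-fold in any of the comparisons with pre-wash or post-wash. As spans on the log2 scale, the members had a median of 0.48 (0.35 to 0.67), beside 0.38 for the 74 cytosolic ribosomal protein genes, 0.84 for the 38 mitochondrial ones and 0.99 for all kept genes. The highest value came at 30 min in 15 members, at 120 min in 14, at 60 min in PRPS1 and at 5 min in PRPS20. The lowest value came at 240 min in 29 members, with PRPL31 lowest before the wash and PRPL33 lowest directly after it. Scaled to equal column sums, the highest value came at 120 min in 22 members and at 60 min in 9. The lowest then came at 240 min in 28 and directly after the wash in 3. Such counts are not given here for all kept genes, so they describe the members only.

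The summed level of the 31 genes gives the course in short. It was 15432 FPKM before the wash, 16120 FPKM directly after it, 16826 FPKM at 5 min, 17876 FPKM at 10 min, 17426 FPKM at 15 min, 18822 FPKM at 30 min, 17983 FPKM at 60 min, 18710 FPKM at 120 min and 13550 FPKM at 240 min. As a percentage of the whole column these sums were 2.44 before the wash and 2.14 directly after it, then 2.22 (5 min), 2.34 (10 min), 2.35 (15 min), 2.56 (30 min), 2.74 (60 min), 2.81 (120 min) and 1.87 (240 min). The sum and the share differed in several steps. The sum was higher directly after the wash than before it, while the share was lower. The sum was lower at 60 min than at 30 min, while the share was higher. The sum was highest at 30 min and the share at 120 min, and both were lowest at 240 min.

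Directly after the wash the plastid ribosomal protein genes were close to their pre-wash level. Their median difference, post-wash minus pre-wash, was 0.05 on the log2 scale as deposited and -0.20 share-scaled, beside 0.00 and -0.22 for all kept genes. For the stronger genes, at 5 FPKM or more in 2 columns, it was 0.06 as deposited. None of the 31 members was 2-fold higher or lower, where 9.65% of all kept genes were. As deposited 23 members lay above pre-wash, where 49.7% of all kept genes did. Share-scaled none did, on a scale where the median of all kept genes was also below 0. PRPS20 had the largest difference and PRPL27 the smallest. S20 is an early binder of the small ribosomal RNA and L27 reaches the site of peptide bond formation in Escherichia coli. PRPS20 was at 414 FPKM post-wash and 367 FPKM pre-wash, a difference of 0.18. PRPL27 was at 414 FPKM post-wash and 435 FPKM pre-wash, a difference of -0.07. The direction of the set across the wash thus depended on the scaling of the columns, and no direction is given for it.

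In the first 30 min of fresh medium without iron the members were progressively further above the post-wash level, with a small step back at 15 min. The median differences from post-wash as deposited were 0.07 (5 min), 0.16 (10 min), 0.12 (15 min) and 0.24 (30 min). Share-scaled they were 0.06, 0.14, 0.14 and 0.28 at the same times, so the sign stayed and the step back did not appear. No member reached 2-fold, while the share of all kept genes at 2-fold was 2.84% (5 min), 6.17% (10 min), 9.01% (15 min) and 19% (30 min). At 30 min all 31 members lay above post-wash, where 49.5% of all kept genes did. Here the order of PRPL27 and PRPS20 was the opposite of that across the wash. PRPL27 had the largest difference, with 530.5 FPKM at 30 min and 414 FPKM post-wash (0.36 on the log2 scale). PRPS20 had the smallest, with 437 FPKM at 30 min and 414 FPKM post-wash (0.08). Both pairs share the post-wash value, which enters these 2 contrasts with opposite sign.

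Against pre-wash the early medians as deposited were 0.11 (5 min), 0.20 (10 min), 0.17 (15 min) and 0.28 (30 min). Share-scaled they were -0.15, -0.07, -0.06 and 0.06, so that the sign at 5, 10 and 15 min turned with the scaling. Between 5 and 30 min, 10.4%, 9.13%, 9.38% and 9.27% of all kept genes were 2-fold from pre-wash, and no member was. As deposited 29 members were above pre-wash at 5 min and all 31 at 10, 15 and 30 min, where 51.8%, 53.4%, 53.7% and 55.2% of all kept genes were. Share-scaled the counts were 2, 6, 5 and 29, beside share-scaled medians of all kept genes of -0.20, -0.20, -0.15 and -0.11. Among genes at 5 FPKM or more in 2 columns, the medians as deposited were 0.12, 0.14, 0.17 and 0.18 at these times. At 5 and 15 min the members' medians thus lay near those of such stronger genes.

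At 60 and 120 min the members stood above pre-wash under both scalings. The median difference from pre-wash was 0.24 at 60 min and 0.29 at 120 min as deposited, and 0.18 and 0.21 share-scaled, beside 0.01 and 0.03 for all kept genes as deposited. All 31 members were above pre-wash at both times under both scalings. As deposited 51.5% and 53.9% of all kept genes were, and share-scaled the median of all kept genes was -0.03 at both times. Quantile normalization, which forces all columns to the same distribution, left medians of 0.03 at 60 min and 0.11 at 120 min. None of the members was 2-fold from pre-wash, where 7.7% of all kept genes were at 60 min and 4.05% at 120 min. PRPL31, whose bacterial counterpart links the subunits near the head of the small one, had the largest difference at both times. PRPL31 was at 390.3 FPKM before the wash, 429 FPKM directly after it, 446 FPKM at 5 min, 487 FPKM at 10 min, 465 FPKM at 15 min, 525 FPKM at 30 min, 502 FPKM at 60 min, 521 FPKM at 120 min and 397 FPKM at 240 min. Its log2 difference from pre-wash was 0.36 at 60 min and 0.42 at 120 min. PRPS20 had the smallest difference at 60 min (0.11) and PRPS5 the smallest at 120 min (0.18).

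Set against post-wash, the members' medians were 0.17 at 60 min and 0.22 at 120 min as deposited, and 0.37 and 0.40 share-scaled. At 60 min 30 of 31 members were above post-wash, where 51.4% of all kept genes were, and PRPS20 was the exception at 396 FPKM at 60 min and 414 FPKM post-wash. At 2-fold there was no member at either time, where 21.8% of all kept genes were at 60 min and 14.4% at 120 min.

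**Figure D2:**
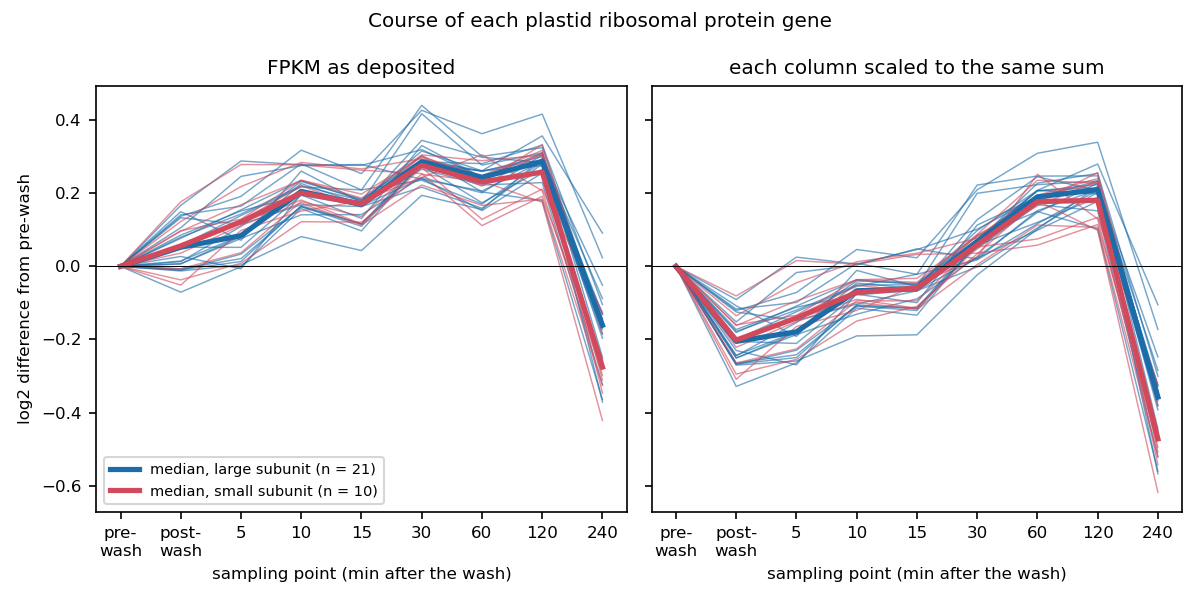
Log2 difference of each of the 31 genes from its own pre-wash value at the 9 sampling points, large subunit in blue and small subunit in red, with the subunit medians as thick lines; left as deposited, right with every column scaled to the same sum. In both panels all genes lie above pre-wash at 60 and 120 min and are lower at 240 min than at 120 min, while the early points lie mostly above 0 on the left and mostly below 0 on the right.

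Between 120 and 240 min every plastid ribosomal protein gene was lower at the later time. The median difference, 240 min minus 120 min, was -0.47 as deposited (-0.67 to -0.27) and -0.59 share-scaled, beside -0.01 and -0.11 for all kept genes. All 31 members lay below their 120 min value, where 51.2% of all kept genes did. None was 2-fold lower, and 1.72% of all kept genes were 2-fold apart in either direction. The largest difference was that of PRPL17, whose bacterial counterpart lies near the exit tunnel, at 239 FPKM at 240 min and 381 FPKM at 120 min (-0.67). The smallest was that of PRPL33, at 371 FPKM at 240 min and 447 FPKM at 120 min (-0.27). Even this smallest difference was further below 0 than the median of all kept genes.

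At 240 min most members were also below their level before the wash. The median difference from pre-wash was -0.17 as deposited and -0.37 share-scaled, with 0.01 and -0.15 for all kept genes. As deposited 29 members were below pre-wash, where 48.7% of all kept genes were, and PRPL33 (0.09) and PRPL31 (0.02) were just above it. Share-scaled all 31 were below, on a scale where the median of all kept genes was below 0 as well (-0.15). No member was 2-fold apart, where 9.32% of all kept genes were. PRPS5 had the largest difference, with 259 FPKM at 240 min and 347 FPKM pre-wash (-0.42). Against post-wash the median at 240 min was -0.25 as deposited, -0.19 share-scaled and -0.0909 under quantile normalization. As deposited 30 of 31 members were below, where 51.4% of all kept genes were, and PRPL33 was again the member above. At 2-fold from post-wash stood 18.8% of all kept genes and no member.

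The remaining members filled in the same picture and are given at these 2 times. Of the proteins of the factor-binding stalk and its base, PRPL10, whose counterpart anchors L7/L12 in Escherichia coli, was at 519 FPKM at 240 min and 708 FPKM at 120 min (-0.45), and PRPL6 was at 543 FPKM at 240 min and 726 FPKM at 120 min (-0.42). Of the proteins around the exit tunnel, PRPL24, an early binder of the large ribosomal RNA, was at 435 FPKM at 240 min and 594 FPKM at 120 min (-0.45). PRPL32 was at 293 FPKM at 240 min and 433 FPKM at 120 min (-0.56). PRPL15 was at 417 FPKM at 240 min and 608 FPKM at 120 min (-0.54). PRPL13, an early-assembling protein, was at 345 FPKM at 240 min and 493 FPKM at 120 min (-0.52). PRPL18, the partner of the small 5S ribosomal RNA, was at 387 FPKM at 240 min and 530.0 FPKM at 120 min (-0.45). These lay between PRPL17 and PRPL33, as all other members must, since that pair had the largest and the smallest difference. PRPL9, PRPL28 and PRPL34 each had a difference of -0.45.

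In the small subunit, PRPS10, a protein of the head, was at 368 FPKM at 240 min and 583 FPKM at 120 min, the second largest difference of all members (-0.66). PRPS13, which touches the large subunit from the head, was at 322 FPKM at 240 min and 459 FPKM at 120 min (-0.51). PRPS21 was at 434 FPKM at 240 min and 601 FPKM at 120 min (-0.47). PRPS6 (-0.62) and PRPS5 (-0.60) lay next to PRPS10, and PRPS16 (-0.34) had the smallest difference of the small subunit.

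The subunits differed little. The small-subunit genes had a median difference from pre-wash of -0.28 at 240 min (-0.42 to -0.13), and the large-subunit genes -0.16 (-0.37 to 0.09). The ranges overlapped, and both members above pre-wash belonged to the large subunit. At 30 min the medians were 0.28 for the small and 0.29 for the large subunit, and at 60 min 0.23 and 0.24. For 240 min minus 120 min they were -0.51 for the small and -0.45 for the large subunit.

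**Figure D3:**
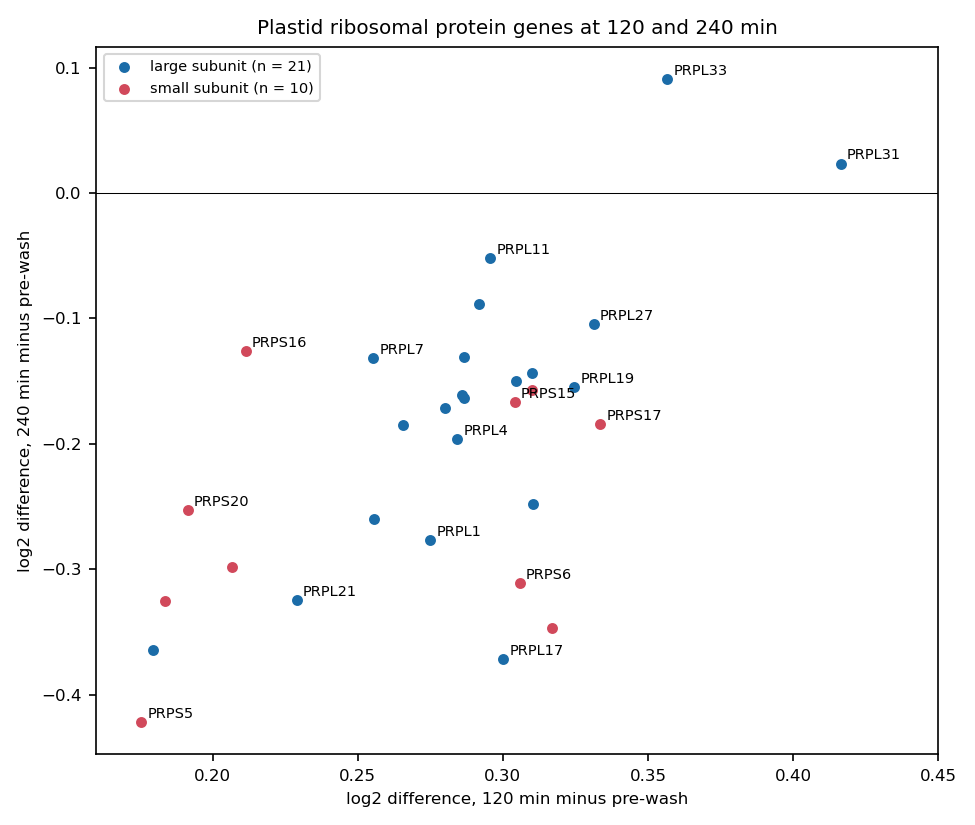
Log2 difference from pre-wash at 120 min (horizontal) and at 240 min (vertical) for the 31 genes, large subunit in blue and small subunit in red, with selected genes labelled; both axes share the pre-wash value, so a slope in the cloud is not read. All genes have values above 0 at 120 min, and only PRPL33 (0.09) and PRPL31 (0.02) lie above 0 at 240 min.

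The similarity of the courses was measured as the Pearson correlation of log2(FPKM + 1) over the 9 columns, which share libraries and scaling and are given as a description. Over the 465 pairs of members the median was 0.93 as deposited and 0.95 share-scaled, beside 0.91 and 0.70 for pairs of cytosolic and 0.71 and 0.81 for pairs of mitochondrial ribosomal protein genes. Each member was also set against the mean of the other 30, and 27 of 31 had a correlation of 0.9 or more. The course of the set was followed most closely by PRPS15, PRPL1 and PRPS17, each at 0.99. S15 is an early binder of the small ribosomal RNA and L1 forms the mobile stalk beside the exit of spent tRNA in Escherichia coli. PRPS15 was at 395 FPKM before the wash, 423 FPKM directly after it, 432 FPKM at 5 min, 465 FPKM at 10 min, 449.5 FPKM at 15 min, 488 FPKM at 30 min, 483 FPKM at 60 min, 488 FPKM at 120 min and 352 FPKM at 240 min. PRPL1 was at 454 FPKM before the wash, 456 FPKM directly after it, 480.2 FPKM at 5 min, 523 FPKM at 10 min, 513 FPKM at 15 min, 565 FPKM at 30 min, 544 FPKM at 60 min, 549 FPKM at 120 min and 374 FPKM at 240 min. In both, the values at 30, 60 and 120 min were the 3 highest and the value at 240 min was the lowest.

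The members least like the rest were PRPL33 (0.69), PRPS20 (0.81) and PRPL11 (0.82), and PRPL27 was the fourth below 0.9, at 0.88. PRPL33 was at 349 FPKM before the wash, 346 FPKM directly after it, 357 FPKM at 5 min, 390.4 FPKM at 10 min, 378 FPKM at 15 min, 423 FPKM at 30 min, 418 FPKM at 60 min, 447 FPKM at 120 min and 371 FPKM at 240 min. Its lowest value was directly after the wash, and its value at 240 min was above those at pre-wash, post-wash and 5 min. L33 is a small protein near the exit site for tRNA. PRPL11 was at 321 FPKM before the wash, 318 FPKM directly after it, 322 FPKM at 5 min, 340.0 FPKM at 10 min, 331 FPKM at 15 min, 368 FPKM at 30 min, 358 FPKM at 60 min, 395 FPKM at 120 min and 309.9 FPKM at 240 min. L11 forms the base of the factor-binding stalk, and PRPL11 stayed within 1.27-fold, the narrowest range of all members. PRPS20 was at 367 FPKM before the wash, 414 FPKM directly after it, 445 FPKM at 5 min, 445 FPKM at 10 min, 440.1 FPKM at 15 min, 437 FPKM at 30 min, 396 FPKM at 60 min, 419 FPKM at 120 min and 307 FPKM at 240 min. It was the only member with its highest value at 5 min. PRPL27 was at 435 FPKM before the wash, 414 FPKM directly after it, 435 FPKM at 5 min, 485 FPKM at 10 min, 465 FPKM at 15 min, 530.5 FPKM at 30 min, 529 FPKM at 60 min, 548 FPKM at 120 min and 405 FPKM at 240 min. The lowest correlation of any pair, 0.23, was that of PRPL33 and PRPS20, with 0.40 share-scaled.

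PRPS1 was the only member highest at 60 min, with 421 FPKM at 30 min, 439.7 FPKM at 60 min and 411 FPKM at 120 min. S1 binds messenger RNA on the small subunit in Escherichia coli, and the deposited annotation of this gene also names a polyribonucleotide nucleotidyltransferase. PRPL29, annotated as putative and as first thought to be mitochondrial, had a correlation of 0.97 with the other members and lay at 493 FPKM at 240 min and 643 FPKM at 120 min. The mitochondrial ribosomal protein genes had a median of 9.78 FPKM at 240 min and 8.43 FPKM at 120 min. The highest of them, MRPS6, was at 112 FPKM at 240 min and 136 FPKM at 120 min.

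The other ribosomes of the cell had different courses. Cytosolic ribosomal proteins build the ribosome that translates nuclear messages, and mitochondrial ones that of the respiratory organelle; 74 and 38 such genes were found by symbol. Median levels before the wash were 435 FPKM for the plastid, 2570 FPKM for the cytosolic and 8.47 FPKM for the mitochondrial genes. Directly after the wash the median difference from pre-wash was 0.05 for the plastid genes, 0.29 for the cytosolic and -0.26 for the mitochondrial genes. Share-scaled these were -0.20, 0.03 and -0.50 for the plastid, cytosolic and mitochondrial genes. At 60 min the medians were 0.24 for the plastid, 0.05 for the cytosolic (-0.01 share-scaled) and 0.36 for the mitochondrial genes. At 240 min they were -0.17 for the plastid, 0.05 for the cytosolic (-0.15 share-scaled) and 0.23 for the mitochondrial genes. Members of a list are not replicates, so these medians were not tested against each other.

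The gap between the medians of 2 lists is nearly free of any factor applied to a whole column. The plastid median minus the cytosolic median, both as differences from pre-wash, was -0.24 directly after the wash, then -0.17 (5 min), -0.13 (10 min), -0.09 (15 min), 0.00 (30 min), 0.19 (60 min), 0.28 (120 min) and -0.22 (240 min). Between post-wash and 120 min the plastid genes thus stood step by step higher relative to the cytosolic ones, and at 240 min they were back near the first value. As a percentage of the summed cytosolic FPKM, the summed plastid FPKM was 7.17 before the wash and 5.97 directly after it, then 6.22 (5 min), 6.53 (10 min), 6.67 (15 min), 7.24 (30 min), 8.15 (60 min), 8.66 (120 min) and 6.12 (240 min). For 240 min minus 120 min the medians were -0.47 for the plastid, 0.04 for the cytosolic and 0.06 for the mitochondrial genes as deposited, and -0.59, -0.08 and -0.04 share-scaled, so that of the 3 lists the plastid one kept its sign. A single cytosolic gene, RPS27E2, was 2-fold lower than pre-wash, with differences of -1.13 at 10 min, -1.38 at 15 min and -1.19 at 30 min. It was at 4.87 FPKM at 30 min and 12.4 FPKM pre-wash. Of the 38 mitochondrial genes, 1 was 2-fold lower than pre-wash directly after the wash, 4 at 5 min, 3 at 10 min and 2 at 15 min, where 1.18%, 1.61%, 1.69% and 2.18% of all kept genes were. Share-scaled, 1, 7, 6 and 3 were. The 4 at 5 min as deposited were MRPL16 (-1.57), MRPS17 (-1.56), MRPL45 (-1.31) and MRPL46 (-1.02). All 4 were weak, in that order at 0.77, 1.18, 1.24 and 1.15 FPKM at 5 min and 4.25, 5.44, 4.56 and 3.37 FPKM pre-wash. None of the 38 mitochondrial genes was 2-fold higher than pre-wash at any time on either scale, and none was 2-fold apart from it at 30, 60, 120 or 240 min.

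**Figure D4:**
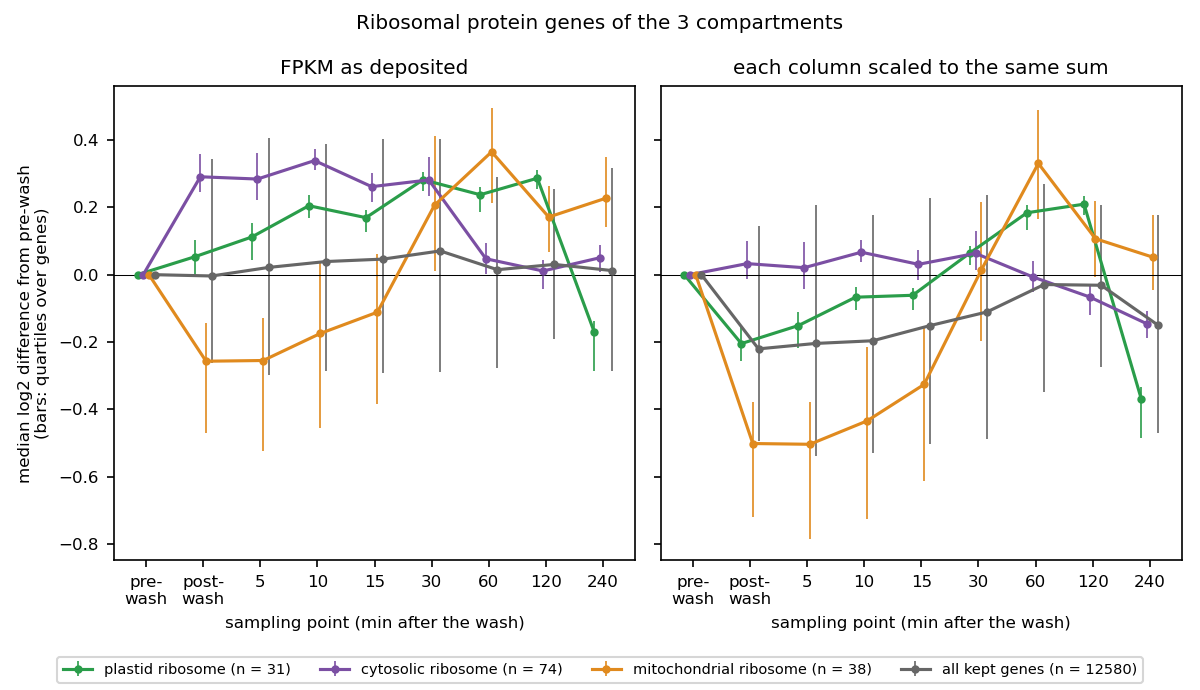
Median log2 difference from pre-wash of the plastid (31), cytosolic (74) and mitochondrial (38) ribosomal protein genes and of all 12580 kept genes, with quartiles over genes as bars, as deposited (left) and with every column scaled to the same sum (right). At 240 min the plastid median is the lowest of the 4 in both panels (-0.17 and -0.37), and at 60 min the mitochondrial median is the highest (0.36 and 0.33).

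A pair of further rows carries a PRPL symbol only as a synonym and falls outside the naming rule. PRPL35 was at 305 FPKM before the wash, 316 FPKM directly after it, 318 FPKM at 5 min, 349.5 FPKM at 10 min, 329 FPKM at 15 min, 382 FPKM at 30 min, 368 FPKM at 60 min, 392 FPKM at 120 min and 269 FPKM at 240 min. PRPL22, which has no product line, was at 334 FPKM before the wash, 325 FPKM directly after it, 329 FPKM at 5 min, 388 FPKM at 10 min, 377 FPKM at 15 min, 433 FPKM at 30 min, 429 FPKM at 60 min, 420.4 FPKM at 120 min and 264 FPKM at 240 min. Their correlations with the mean course of the 31 members were 0.97 and 0.96. Adding both moved the median most at 60 min against post-wash, from 0.17 to 0.19.

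Plastid ribosomes also hold proteins without a bacterial counterpart or with a changed one, named plastid-specific ribosomal proteins. PSRP3 was at 396 FPKM before the wash, 387 FPKM directly after it, 388 FPKM at 5 min, 440.4 FPKM at 10 min, 423 FPKM at 15 min, 479.8 FPKM at 30 min, 458 FPKM at 60 min, 460.3 FPKM at 120 min and 309.6 FPKM at 240 min. PSRP6, for which the table gives no product line, was at 376 FPKM before the wash, 409 FPKM directly after it, 415 FPKM at 5 min, 465 FPKM at 10 min, 438 FPKM at 15 min, 482 FPKM at 30 min, 444 FPKM at 60 min, 462 FPKM at 120 min and 361 FPKM at 240 min. Both had the level and the course of the members, with correlations of 0.97 and 0.96. PSRP4 was far weaker at 8.07 FPKM before the wash, 7.49 FPKM directly after it, 5.97 FPKM at 5 min, 4.85 FPKM at 10 min, 4.98 FPKM at 15 min, 4.71 FPKM at 30 min, 6.58 FPKM at 60 min, 10.6 FPKM at 120 min and 8.64 FPKM at 240 min. It was lowest at 30 min, when 15 of the members were highest.

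PSRP1 had a different course altogether. Despite its name it is not a structural part in spinach, where it binds idle plastid ribosomes and resembles bacterial hibernation factors. The deposited annotation lists it as a protein of the plastid small subunit, distinct from S1. PSRP1 was at 77.9 FPKM before the wash, 275 FPKM directly after it, 254 FPKM at 5 min, 233 FPKM at 10 min, 192 FPKM at 15 min, 77.6 FPKM at 30 min, 19.9 FPKM at 60 min, 83.0 FPKM at 120 min and 113 FPKM at 240 min. It was 3.53 times as high post-wash as pre-wash and 13.8-fold lower at 60 min than post-wash. The median of the members was 502 FPKM at 60 min and 431 FPKM post-wash, so the PSRP1 value was lowest at a time when the members stood above post-wash. Its correlation with the mean course of the members was -0.22 as deposited and -0.60 share-scaled. These are plain ratios of FPKM from single combined values, and with each column scaled to the same sum the log2 differences of PSRP1 kept their signs in both contrasts.

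**Figure D5:**
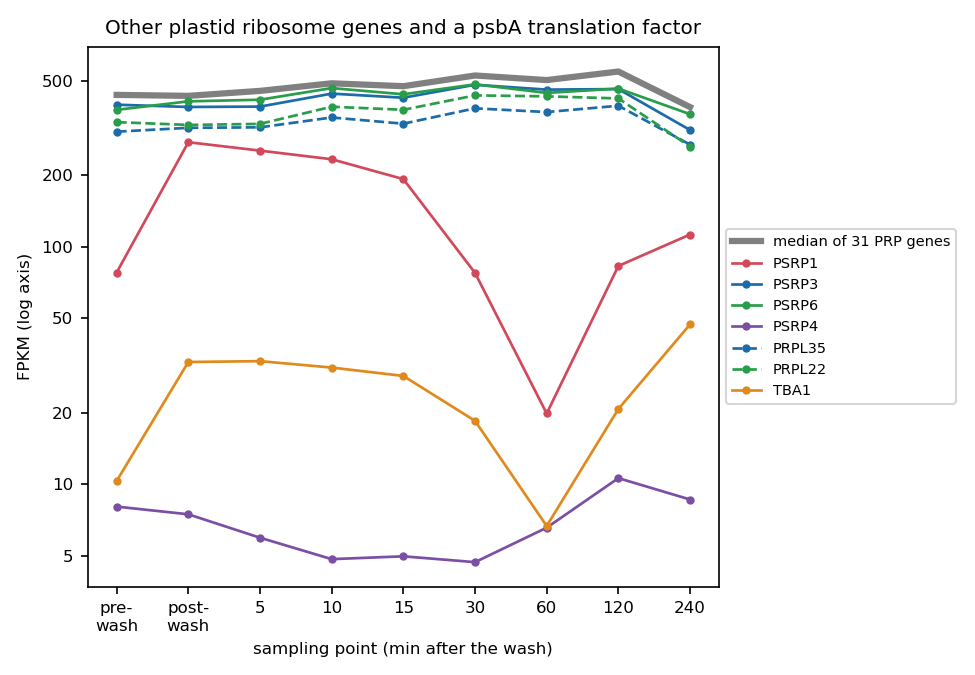
FPKM (log axis) at the 9 sampling points of PSRP1, PSRP3, PSRP4, PSRP6, of PRPL35 and PRPL22, and of TBA1, a translation factor for psbA, with the median of the 31 members in grey. PSRP3, PSRP6, PRPL35 and PRPL22 run parallel to the members, whereas PSRP1 (275 FPKM post-wash, 19.9 FPKM at 60 min) and TBA1 (32.7 FPKM post-wash, 6.69 FPKM at 60 min) are high after the wash and lowest at 60 min.

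A wider set of 36 genes for plastid translation was collected. It had 24 genes listed as general factors and 17 as factors for single plastid messages, with 5 on both lists. The general list was filled by symbols and by product lines, and so also holds CGE1 and CGE2, co-chaperones, and EFG2, annotated as Elongation Factor 2. It includes PRPL35, PSRP1, PSRP3, PSRP4 and PSRP6, described above, as well. The counts and medians of this set are therefore not separate from those ribosomal genes. RAA3, a splicing factor for psaA, did not pass the filter, which left 35. Of these, 2 were 2-fold higher post-wash than pre-wash (PSRP1 and TBA1) and none lower, 2 were higher at 30 min than pre-wash (TCA1 and TAB2), 1 was lower at 60 min than pre-wash (PSRP1), and at 240 min 1 was higher (TBA1) and 1 lower (RB38) than pre-wash. The shares of all kept genes were 8.47% higher and 1.18% lower post-wash, 5.53% higher at 30 min, 3.66% lower at 60 min, and 4.38% higher and 4.94% lower at 240 min. The medians of the 35 genes, as differences from pre-wash, were -0.09 post-wash, 0.27 at 30 min, 0.21 at 60 min and -0.10 at 240 min. Share-scaled the signs of these medians stayed, while the 2-fold counts became 2 higher and 2 lower post-wash, 1 higher at 30 min, 1 lower at 60 min, and 1 higher and 3 lower at 240 min.

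Among the general factors, EFG1, the plastid elongation factor that moves the ribosome along the message, was at 333 FPKM before the wash, 349 FPKM directly after it, 346 FPKM at 5 min, 366 FPKM at 10 min, 379.6 FPKM at 15 min, 437 FPKM at 30 min, 464 FPKM at 60 min, 329.6 FPKM at 120 min and 285 FPKM at 240 min. It was highest at 60 min and lowest at 240 min, and its correlation with the members was 0.73. INFA, initiation factor 1, was at 84.4 FPKM before the wash, 79.4 FPKM directly after it, 90.1 FPKM at 5 min, 92.1 FPKM at 10 min, 101 FPKM at 15 min, 127 FPKM at 30 min, 109 FPKM at 60 min, 72.4 FPKM at 120 min and 65.8 FPKM at 240 min. TIG1, trigger factor, a chaperone that waits at the exit tunnel, was at 51.1 FPKM before the wash, 51.3 FPKM directly after it, 61.9 FPKM at 5 min, 58.9 FPKM at 10 min, 63.2 FPKM at 15 min, 61.4 FPKM at 30 min, 57.3 FPKM at 60 min, 45.8 FPKM at 120 min and 34.6 FPKM at 240 min. All 3 factors had their lowest value at 240 min, and all 3 were below pre-wash at 120 min, EFG1 by the least (-0.02, with -0.22 for INFA and -0.16 for TIG1). RB60, a protein disulfide isomerase linked to psbA translation in this alga, ran the other way, with a correlation of -0.89 as deposited and -0.51 share-scaled. RB60 was at 234 FPKM before the wash, 218 FPKM directly after it, 196 FPKM at 5 min, 197 FPKM at 10 min, 189 FPKM at 15 min, 175 FPKM at 30 min, 178 FPKM at 60 min, 213 FPKM at 120 min and 374 FPKM at 240 min. It was lowest at 30 min and highest at 240 min. EFG1, INFA, TIG1 and RB60 were chosen after their values were seen and do not stand for the lists. RB47, on both lists, was lowest at 120 min (663 FPKM). It was at 685 FPKM at 240 min and 666 FPKM pre-wash.

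The genes whose courses were most like the mean of the members were sought among 4399 kept genes with a symbol, members left out. The closest was HIS1, which encodes the enzyme that opens histidine synthesis (0.98), followed by PSRP3, PRPL35, PRPL22 and PSRP6. Next came CPN11, CPN23 and CPN20, chaperonin genes, at 0.96, 0.95 and 0.94, then PANE and LEU1S at 0.93 each. LEU1S encodes a subunit of isopropylmalate dehydratase in leucine synthesis. PANE was weak, at 0.71 FPKM at 240 min and 1.23 FPKM pre-wash. HIS1 was at 67.9 FPKM before the wash, 75.2 FPKM directly after it, 74.5 FPKM at 5 min, 79.6 FPKM at 10 min, 81.8 FPKM at 15 min, 87.2 FPKM at 30 min, 86.2 FPKM at 60 min, 85.3 FPKM at 120 min and 57.7 FPKM at 240 min. CPN11 was at 228 FPKM before the wash, 252 FPKM directly after it, 254 FPKM at 5 min, 260.2 FPKM at 10 min, 261 FPKM at 15 min, 273 FPKM at 30 min, 255 FPKM at 60 min, 281 FPKM at 120 min and 204 FPKM at 240 min. Both were lowest at 240 min, as were 29 of the members. With every column scaled to the same sum, 7 of these 10 genes were again among the 10 closest. Histidine and chaperonin genes were found by this search and were not chosen beforehand, and a high correlation over 9 columns is a description only.

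The members were spread over 14 chromosomes in the RefSeq annotation. PRPS15 and PRPL13 were neighbours on chromosome 6 with 0 genes between them, and their correlation was 0.98. PRPS16 and PRPS13 lay on chromosome 12 with 11 genes between them, and their correlation was 0.94. The median over all 465 pairs of members was 0.93. PRPL21 and PRPL27, with 39 genes between them, were at 0.83, and PRPL1 and PRPL17, with 548 between them, at 0.99. A link between distance and course was not tested. The span of PRPL27 overlapped that of an unnamed gene, so reads of the pair may not have been fully separated, since no source used here says whether strand was counted.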

How the data were processed

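Polyadenylated RNA of 18 samples (9 sampling points, replicates 1 and 2 at each) had been read on an Illumina sequencer, per the labels' protocols. The authors deposited FPKM for 17741 genes with v5.6 identifiers, per the file headers, as 1 column per sampling point for both cultures together. Per the submitters' processing notes, the tools include STAR 2.4.1 and Cuffdiff 2.0.2, and no source used here says how the columns were scaled against each other. A further 9 value columns were not used. The planned limma fits need a column per culture and were not run.

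Differences were taken on log2(FPKM + 1) among 12580 genes that reached 1 FPKM in 2 or more columns, and a gene was counted at 2-fold. A pseudocount of 1 understates differences of weak genes. Depth is unknown: the ratios of the lowest values between columns recurred only in part, so whole reads were not recovered. Symbols came from the deposited gene name or, failing that, its synonym column (5186 genes). A RefSeq gene table (assembly Chlamydomonas_reinhardtii_v5.5, matching 17738 identifiers) served only to show neighbours, and no coordinates are printed. Protein and promoter sequences were not analysed here.

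The members and gene lists were chosen with earlier results of these data known. Of the list for single plastid messages, 1 symbol was left out because its product names another protein. Members named with all values are the 3 highest and the lowest of each subunit, those with the largest and smallest difference in 5 contrasts, and the 3 most and 3 least like the mean course. PRPL17, PRPS1, PRPL29, PSRP3, PSRP4, PSRP6, EFG1, INFA, TIG1, RB47, RB60, MCA1, TBA1 and RPS27E2 were chosen after their values were seen. So were MRPL16, MRPS17, MRPL45, MRPL46 and MRPS6. The alternatives were a pseudocount of 0.1, no filter, a filter at 5 FPKM, quantile normalization, median-of-ratios scaling and the product line as a criterion, with scaling to equal column sums and the synonym rows added after the data were seen. Scripts ran under Python 3.11.15 with numpy 2.4.6, pandas 2.3.3 and matplotlib 3.10.9, and were tested on simulated data.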

Additional observations from a re-analysis of the deposited data

How the results depend on the processing

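The medians of the 31 members kept their sign in all 16 comparisons under a pseudocount of 0.1, without a filter, with the filter at 5 FPKM, with median-of-ratios scaling, with members by product line and with the synonym rows, and no member reached 2-fold under any of the 8 alternatives. Neither the filter settings nor the product line changed which 31 members were used, so the medians could not move under them. Median-of-ratios scaling shifted the columns by only -0.033 to -0.001 on the log2 scale. The 2 other scalings turned the early differences from pre-wash. With each column scaled to the same sum the medians were -0.20 post-wash, -0.15 at 5 min, -0.0669 at 10 min and -0.0612 at 15 min, and moved to 0.0643 at 30 min and -0.37 at 240 min against pre-wash and to 0.37 at 60 min and 0.40 at 120 min against post-wash. With quantile normalization they were -0.22 post-wash, -0.17 at 5 min, -0.0906 at 10 min and -0.11 at 15 min, and moved to 0.00 at 30 min, 0.0319 at 60 min and 0.11 at 120 min against pre-wash. Other medians moved by over 1.5 times with their sign kept under quantile normalization were -0.27 at 240 min against pre-wash, and 0.0423 at 5 min, 0.10 at 10 min and -0.0909 at 240 min against post-wash. The median of all kept genes against pre-wash shifted by -0.24 to -0.04 under equal sums, by -0.14 to -0.01 under quantile normalization and by up to 0.12 under the filter at 5 FPKM. Among 90 differences of 15 named members, the sign turned in 18 under quantile normalization, 13 under equal sums and 1 under median-of-ratios scaling. A pseudocount of 0.1 moved 14 of 16 counts of all kept genes at 2-fold by over 1.5 times, for example to 1973, against 1214 with a pseudocount of 1, for post-wash against pre-wash. No paired analysis was possible because the table holds 1 combined column per sampling point, and the replicate block and the fits without replicate 1 or 2 were not run for the same reason. The unknown depth limits the weakest genes named, such as PANE, TCA1, PSRP4 and MRPL16, more than the members, the lowest of which was at 185 FPKM.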

Other observations

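Factors for single plastid messages, the nucleus-encoded proteins that stabilise, splice or help translate 1 plastid RNA each, were mostly weak. Of 16 kept genes, 8 were 2-fold higher at 30 min than post-wash and none lower, where 8.92% of all kept genes were higher and 10.1% lower, and 4 were 2-fold higher at 60 min than post-wash, where 7.41% were. Their median difference was 0.91 at 30 min against post-wash, and -0.36 post-wash against pre-wash. The post-wash value enters both of these contrasts with opposite sign. Against pre-wash, only TCA1 and TAB2 of these genes were 2-fold higher at 30 min. TAB2, an RNA-binding protein for psaB of photosystem I, was at 46.1 FPKM before the wash, 33.3 FPKM directly after it, 53.2 FPKM at 5 min, 69.6 FPKM at 10 min, 83.7 FPKM at 15 min, 108 FPKM at 30 min, 87.4 FPKM at 60 min, 63.7 FPKM at 120 min and 51.9 FPKM at 240 min. MCD1, with no product line in the table, was at 1.91 FPKM before the wash, 0.53 FPKM directly after it, 2.76 FPKM at 5 min, 3.12 FPKM at 10 min, 3.15 FPKM at 15 min, 3.44 FPKM at 30 min, 2.39 FPKM at 60 min, 1.36 FPKM at 120 min and 1.21 FPKM at 240 min. MCA1, a stability factor for petA of the cytochrome b6f complex, was at 20.3 FPKM before the wash, 16.3 FPKM directly after it, 23.6 FPKM at 5 min, 34.7 FPKM at 10 min, 33.9 FPKM at 15 min, 34.1 FPKM at 30 min, 27.4 FPKM at 60 min, 17.2 FPKM at 120 min and 12.4 FPKM at 240 min. RB38, a chloroplast-targeted RNA-binding protein that binds psbA, went the other way, at 86.9 FPKM before the wash, 96.8 FPKM directly after it, 95.9 FPKM at 5 min, 88.0 FPKM at 10 min, 83.2 FPKM at 15 min, 69.4 FPKM at 30 min, 50.4 FPKM at 60 min, 43.7 FPKM at 120 min and 23.0 FPKM at 240 min. Its value at 240 min was 3.78-fold lower than pre-wash. TBA1, the psbA translation factor, was at 10.3 FPKM before the wash, 32.7 FPKM directly after it, 33.0 FPKM at 5 min, 31.02 FPKM at 10 min, 28.6 FPKM at 15 min, 18.5 FPKM at 30 min, 6.69 FPKM at 60 min, 20.8 FPKM at 120 min and 47.1 FPKM at 240 min. It was 4.55 times as high at 240 min as pre-wash, and it was lowest at 60 min, as was PSRP1. These values come from combined columns without replicates, most of these genes lie under 40 FPKM, and nothing was tested.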
